A study of Rattus norvegicus with 27 samples.

Results

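The genes described here are 10 members of the neuregulin and epidermal growth factor (EGF) system. They were taken by name from the 17315 genes of a cell mRNA table of cultured rat Schwann cells. The set holds 3 receptors (*Egfr*, *Erbb2* and *Erbb3*), 6 ligands (*Nrg1*, *Areg*, *Btc*, *Hbegf*, *Ereg* and *Tgfa*) and the receptor inhibitor *Errfi1*. All 10 names were found. After a filter on low counts 8 were tested, and *Egfr* and *Ereg* did not pass it. In cells kept with dibutyryl cyclic AMP (dbcAMP), *Nrg1*, *Hbegf*, *Errfi1* and *Erbb3* were higher than in undifferentiated cells, and *Btc* and *Areg* were lower. *Areg* passed the filter only with the help of the undifferentiated libraries. *Erbb2* rose after dbcAMP had been withdrawn.

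ErbB receptors are receptor tyrosine kinases that signal as pairs. Neuregulin 1, the product of *Nrg1*, binds ErbB3, whose own kinase is weak, and ErbB3 then signals through ErbB2, which has no known ligand of its own. In peripheral nerve this pair carries the axonal signal on which Schwann cells depend for survival, division and the thickness of the myelin sheath. The EGF-type ligands bind the EGF receptor, and betacellulin, heparin-binding EGF and epiregulin also bind ErbB4. These ligands are made as membrane-bound precursors that proteases such as ADAM17 and ADAM10 release.

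The cells were commercial primary rat Schwann cells, the glia that ensheath axons of peripheral nerves, with 3 biological replicates at each of 3 stages. Undifferentiated cells received no dbcAMP, a membrane-permeable analogue of cyclic AMP, and the labels say nothing more of their medium. Cells of the differentiated stage were kept for 72 h with 1 mM dbcAMP in medium with 1% vesicle-depleted serum, for which no neuregulin is named. Dedifferentiated cells had the same treatment and then 72 h without dbcAMP in the complete medium. Per the labels this medium held 10% vesicle-depleted serum, forskolin, which raises cyclic AMP through adenylyl cyclase, and human neuregulin 1-beta 1 at 10 ng/mL. Before dbcAMP, the cells had been in the complete medium and then in starvation medium. The end of dbcAMP thus came together with serum, forskolin and an added ErbB3 ligand, and their effects cannot be told apart. Undifferentiated and differentiated cells may also differ in serum, neuregulin, forskolin and the starvation step, since the undifferentiated medium is not given. Effects of these and of dbcAMP cannot be told apart either, and "under dbcAMP" below names that comparison, not a cause. The labels give no donor animals, so p-values measure the spread between these cultures.

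Libraries held 10058732 to 16212282 estimated counts, so that 3 counts in a library correspond to 0.185 to 0.298 CPM (counts per 1000000 counts of the library). Of the 7 Schwann cell markers in the table, all averaged above 1 CPM, and their summed level was 7582 to 8757 CPM in undifferentiated, 7224 to 9859 in differentiated and 17628 to 20567 in dedifferentiated cells. The 7 fibroblast markers summed to 15767 to 19721, 5430 to 7708 and 9919 to 12871 CPM in the same order. Nearly all of that was *Col1a1*. *Col3a1* averaged 53.2, 92.0 and 147 CPM in the same order of stages, and *Fbln1* 1.82, 4.11 and 1.43 CPM. *Pdgfra*, *Dcn* and *Thy1* averaged under 1 CPM at every stage, and *Lum* was at 0. Markers of macrophages summed to at most 1.53 CPM, those of neurons to at most 0.368 and those of endothelium to at most 8.26, with *Cdh5* at 0. Mural and muscle markers summed to 124 to 154, 542 to 810 and 323 to 346 CPM by stage, mostly *Pdgfrb*, and *Rgs5* was at 0. In bulk RNA, fewer cells of a type and less RNA per cell cannot be told apart, and the part of these markers in the results below was not tested.

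Levels are given as CPM of the column totals. Differences are log2 changes with standard errors (SE) from edgeR's quasi-likelihood test, and a call means that the p adjusted by Benjamini and Hochberg's method over the 10372 genes tested was under 0.05. In differentiated against undifferentiated cells, 6 of the 8 tested genes were called, 4 higher and 2 lower, where 59.6% of all genes were called (31.7% higher and 27.9% lower). Of the 2 lower genes, *Areg* passed the filter only with the help of the undifferentiated libraries, where it is highest. On withdrawal, which compares dedifferentiated with differentiated cells, 5 were called, 2 higher and 3 lower, against 46.4% of all genes (23.2% in each direction). Within replicates 1 and 2 alone none of the 3 lower genes passed on withdrawal, while the 2 higher ones did. Between dedifferentiated and undifferentiated cells 4 were called, all higher, against 29.4% of all genes (16.1% higher and 13.3% lower). In all 3 comparisons *Erbb3* and *Hbegf* were called, 2 of 8, beside 13.8% of all genes. Libraries of the compared stages did not overlap in CPM for 7, 7 and 5 of the 8 genes in the same order, beside 66.3%, 58.5% and 43.9% of all genes. These counts are near the background and are no result about the members. The median absolute log2 change of the 8 genes was 1.58, 0.60 and 0.58 in the 3 comparisons in order, and that of all tested genes 0.47, 0.36 and 0.26. The 3 comparisons share libraries and are not independent of each other.

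**Figure D1:**
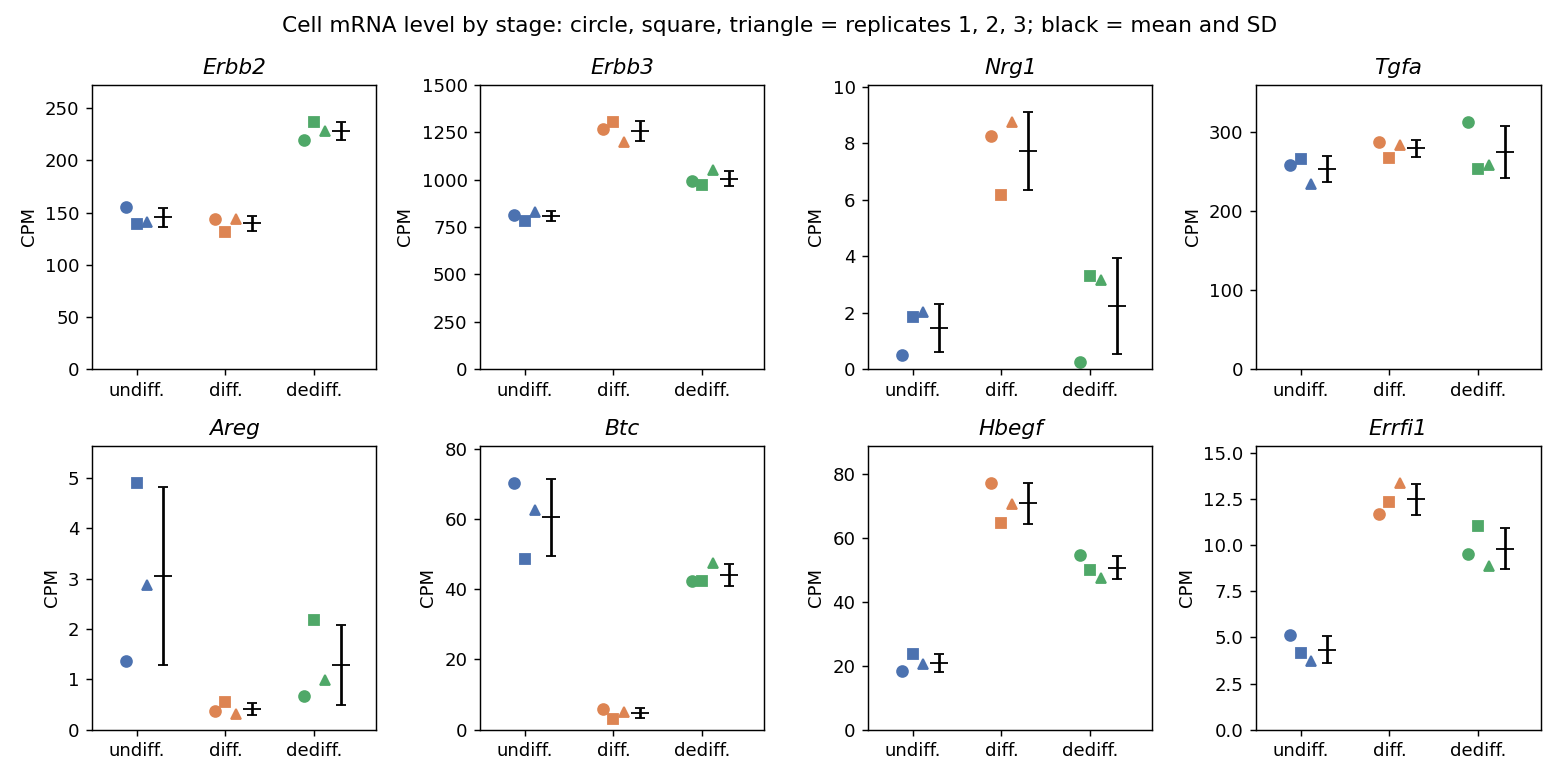
Level of the 8 tested genes in each library (vertical axis, CPM from 0, a separate scale per gene) at the undifferentiated, differentiated and dedifferentiated stage. Coloured symbols are replicates 1 (circle), 2 (square) and 3 (triangle), and black marks are the mean and SD of 3. *Btc* drops from 48.6 CPM or more to 5.82 or less under dbcAMP, while *Hbegf* moves from 23.7 or less to 64.5 or more.

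Of the receptors, *Erbb3* was read at the highest number of counts of the 10 genes, 8132 to 19448 per library. It measured 811, 782 and 831 CPM in the undifferentiated libraries (replicates 1, 2 and 3), 1267, 1305 and 1200 CPM in the differentiated and 994, 972 and 1050 CPM in the dedifferentiated ones. The 3 stages did not overlap, with dedifferentiated cells between the other stages. The log2 change was 0.58 under dbcAMP (SE 0.08; edgeR adjusted p = 9.89e-05), a 1.49-fold rise, and -0.31 on withdrawal (SE 0.08; edgeR adjusted p = 0.00814). Dedifferentiated cells remained 1.20-fold above undifferentiated ones (log2 change 0.27, SE 0.08; edgeR adjusted p = 0.0269). This last difference is the least firm of them. It lost its call without undifferentiated replicate 2 (edgeR adjusted p = 0.129) or 3 (0.0706), without dedifferentiated replicate 2 (0.0714) or 3 (0.0956), and without a filter on low counts (0.0638). Within the 6 libraries of replicates 1 and 2, which the labels give 1 sequencing project, the log2 changes were 0.24 for this comparison (edgeR adjusted p = 0.248) and -0.37 on withdrawal (0.0648). The other project holds 1 library per stage and gives no test.

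*Erbb2*, the partner of ErbB3, followed another course. Its level was 156, 139 and 141 CPM in undifferentiated, 143, 132 and 143 CPM in differentiated, and 219, 237 and 229 CPM in dedifferentiated libraries. The first 2 stages overlapped, and every dedifferentiated library lay above all others. Under dbcAMP the log2 change was -0.12 with a 95% interval of -0.31 to 0.06 (edgeR adjusted p = 0.224), which leaves a rise of the size seen in *Erbb3* outside it. On withdrawal *Erbb2* rose 1.65-fold (log2 change 0.72, SE 0.08; edgeR adjusted p = 5.78e-05), and it was 1.52-fold above undifferentiated cells (log2 change 0.60, SE 0.08; edgeR adjusted p = 0.000371).

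The 2 receptor genes can be compared within a library, where scaling between libraries has no part. *Erbb2* counts were 18.0% ± 1.11 of *Erbb3* counts in undifferentiated cells (SD, n = 3), 11.1% ± 0.943 in differentiated and 22.7% ± 1.43 in dedifferentiated cells. These are ratios of counts, not of molecules, since the table gives no gene lengths. An exact permutation test of the F statistic of the log2 ratio gave p = 0.00357, the smallest that 280 assignments of 9 libraries allow. No 2 stages overlapped in the ratio, but with 3 libraries against 3 the two-sided exact permutation p of each pair cannot go below 0.1, which is the value of each. The log2 ratio fell by 0.70 under dbcAMP and rose by 1.03 on withdrawal, to end 0.34 above its value in undifferentiated cells.

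**Figure D2:**
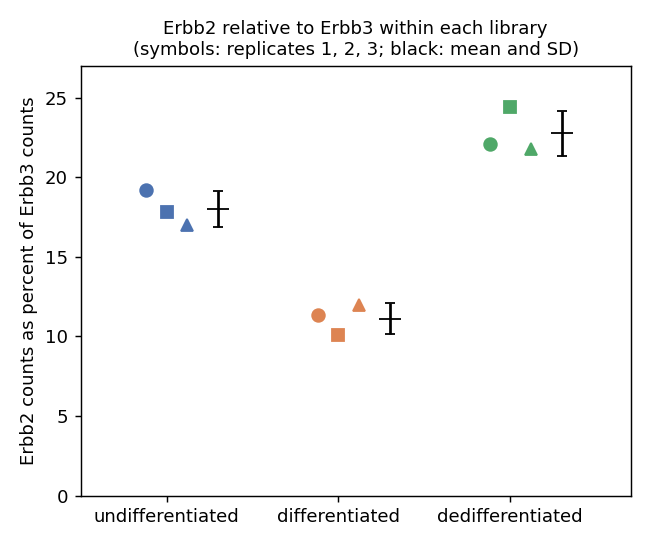
*Erbb2* counts as a percentage of *Erbb3* counts in each of the 9 libraries (vertical axis, percent, from 0) by stage. Symbols are replicates 1 (circle), 2 (square) and 3 (triangle), with the mean and SD of 3 in black. Differentiated libraries sit at 10.1% to 12.0%, below the 17.0% to 19.2% of undifferentiated and the 21.8% to 24.4% of dedifferentiated libraries.

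The other receptors of the family gave few or no counts. *Egfr*, the receptor of the EGF-type ligands, was at 0 counts in all 9 libraries. For counting error alone, this allows up to 3 counts or 0.298 CPM in the shallowest. The part of annotation and quantification in this 0 was not tested, and *Braf*, *Cbl* and *Rictor* were not found in the table by name. Over the whole table, 3909 genes (22.6%) were at 0 in every library. A set of 270 genes was taken by the start of their names, mostly of ribosomes, proteasomes, translation, transcription and respiration, as genes that cells generally need. Of these, 4 were at 0 in every library. *Erbb4*, the remaining receptor, had 9 counts over 4 libraries and was under the filter. A ratio of *Egfr* to *Erbb3* was therefore not computed.

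Among the ligands, *Nrg1* rose under dbcAMP from a low level. It gave 0.483, 1.83 and 2.03 CPM in undifferentiated libraries, 8.25, 6.17 and 8.76 CPM in differentiated ones and 0.254, 3.28 and 3.16 CPM in dedifferentiated ones. All differentiated libraries were above all others, and replicate 1 was the lowest library at both other stages, with 6 and 3 counts. The log2 change was 2.35 on differentiation (SE 0.63; edgeR adjusted p = 0.00764), a 5.11-fold rise, and -1.79 on withdrawal (SE 0.60; edgeR adjusted p = 0.0321). Dedifferentiated and undifferentiated libraries overlapped (log2 change 0.57, 95% interval -0.92 to 2.05; edgeR adjusted p = 0.569). The fall on withdrawal lost its call without differentiated replicate 1 (edgeR adjusted p = 0.0664) or 3 (0.0837). Within replicates 1 and 2 alone the log2 changes were 2.60 on differentiation (edgeR adjusted p = 0.0591) and -2.05 on withdrawal (0.138). The counts are per gene and do not separate the isoforms of *Nrg1*. Reads of this gene are the cells' own transcripts, since the neuregulin of the complete medium was added as protein.

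*Btc*, which encodes betacellulin, showed the largest change of the 8 genes. It measured 70.3, 48.6 and 62.6 CPM in undifferentiated, 5.82, 3.09 and 5.00 CPM in differentiated and 42.3, 42.4 and 47.5 CPM in dedifferentiated libraries. Each stage was apart from the others, and the differentiated libraries were far below both. *Btc* was 13.6-fold lower under dbcAMP (log2 change -3.76, SE 0.21; edgeR adjusted p = 1.46e-07) and rose 9.52-fold on withdrawal (log2 change 3.25, SE 0.21; edgeR adjusted p = 1.05e-06). Against undifferentiated cells the dedifferentiated level was 0.51 lower on the log2 scale (log2 change -0.51, 95% interval -0.90 to -0.12), a difference that missed the threshold (edgeR adjusted p = 0.0526) although the libraries did not overlap. Libraries of these 2 stages did not overlap for 43.9% of all genes tested.

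*Areg*, the gene of amphiregulin, also fell under dbcAMP, at a much lower count of 5 to 51 per library. Undifferentiated libraries had 1.37, 4.90 and 2.88 CPM, differentiated ones 0.368, 0.540 and 0.308 CPM, and dedifferentiated ones 0.678, 2.19 and 0.978 CPM. Differentiated libraries were below all others, and the other stages overlapped. *Areg* passed the filter on low counts only with the help of the undifferentiated libraries, where it is highest, so that the filter favoured a difference. The fall under dbcAMP was 7.68-fold (log2 change -2.94, SE 0.60; edgeR adjusted p = 0.00156). After withdrawal the log2 change was 1.64 with a 95% interval of 0.21 to 3.06 (edgeR adjusted p = 0.0583), and the libraries did not overlap. The difference between dedifferentiated and undifferentiated cells was -1.30 (SE 0.53; edgeR adjusted p = 0.0897), so neither passed the threshold. In the RefSeq annotation of the rat assembly GRCr8, *Btc*, *Areg*, *Ereg* and *Epgn* follow one another on chromosome 14 with no other protein-coding gene between them. *Ereg*, the gene of epiregulin, had 2 counts in 1 undifferentiated library and none elsewhere. *Epgn*, that of epigen, had 1 count in all, so the other 2 genes of this cluster were not measurable at this depth.

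*Hbegf* and *Tgfa* completed the ligands. *Hbegf*, whose product binds heparan sulphate, gave 18.3, 23.7 and 20.6 CPM in undifferentiated, 77.2, 64.5 and 70.7 CPM in differentiated and 54.6, 49.9 and 47.5 CPM in dedifferentiated libraries. Each stage was again separate, and the dedifferentiated level stayed nearer the differentiated one. It rose 3.27-fold under dbcAMP (log2 change 1.71, SE 0.12; edgeR adjusted p = 5.67e-07) and fell by 0.47 on the log2 scale on withdrawal (SE 0.11; edgeR adjusted p = 0.00576). It remained 2.36-fold above undifferentiated cells (log2 change 1.24, SE 0.12; edgeR adjusted p = 2.75e-05). Within replicates 1 and 2 alone the fall on withdrawal was -0.43 (edgeR adjusted p = 0.101).

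*Tgfa*, the gene of transforming growth factor alpha, was steady by comparison. Its libraries gave 259, 266 and 235 CPM in undifferentiated, 288, 268 and 284 CPM in differentiated and 313, 254 and 258 CPM in dedifferentiated cells. The differentiated libraries were all above the undifferentiated ones by a small margin, and the dedifferentiated ones overlapped both. None of the 3 comparisons passed the threshold (edgeR adjusted p = 0.517, 0.940 and 0.651), and the 95% interval of the log2 change was -0.15 to 0.31 on differentiation and -0.24 to 0.22 on withdrawal.

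*Errfi1* encodes an intracellular inhibitor of the kinases of the EGF receptor and ErbB2 that is itself induced by growth factor signalling. It measured 5.16, 4.13 and 3.73 CPM in undifferentiated, 11.7, 12.3 and 13.4 CPM in differentiated and 9.49, 11.0 and 8.88 CPM in dedifferentiated libraries. No stages overlapped, and undifferentiated cells were the lowest. *Errfi1* rose 2.75-fold under dbcAMP (log2 change 1.46, SE 0.18; edgeR adjusted p = 5.31e-05) and was still 2.18-fold above undifferentiated cells after withdrawal (log2 change 1.12, SE 0.19; edgeR adjusted p = 0.00117). The change on withdrawal was -0.34 with a 95% interval of -0.72 to 0.04 (edgeR adjusted p = 0.132).

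**Figure D3:**
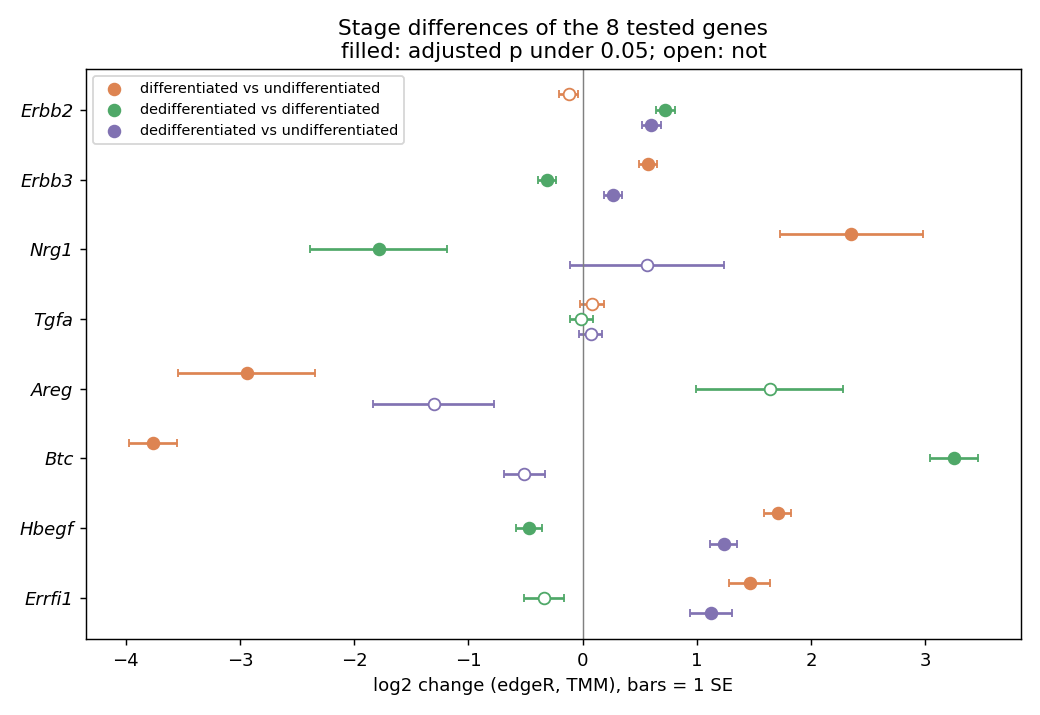
Log2 change of the 8 tested genes (horizontal axis, edgeR with TMM scaling) in 3 comparisons, with bars of 1 SE. Filled points passed an adjusted p of 0.05 and open points did not. *Btc* stands at -3.76 on differentiation and 3.25 on withdrawal, while all 3 points of *Tgfa* are open and lie between -0.01 and 0.08.

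Because the treatment was a cyclic AMP analogue, the promoters were read for the cyclic AMP response element, the palindrome TGACGTCA that factors of the CREB family bind. Its half-site TGACG and the AP-1 motif TGANTCA were searched as well, all on both strands. RefSeq promoter windows of GRCr8, each 250 bases before and 50 bases after the annotated start, were found for 7 of the 10 genes. *Erbb3*, *Nrg1* and *Ereg* were not matched. The full element was in 1 of the 7 windows, that of *Areg*, where it begins 91 bases before the start and includes 2 half-sites, 1 on each strand. In all 27457 promoter windows of this length it was found in 1.91%. The half-site was in 3 of 7 windows, *Areg*, *Hbegf* (193 bases before the start) and *Errfi1* (56 bases before the start), and in 22.0% of all windows. TGANTCA was in none of the 7 and in 7.33% of all. The windows of *Areg* and *Btc* are shown because these neighbouring genes both fell under dbcAMP, and that of *Errfi1* because it rose. Capitals mark TGACGTCA or TGACG on either strand, and *Btc* has none.
*Areg*, chr14:17265592-17265891, minus strand: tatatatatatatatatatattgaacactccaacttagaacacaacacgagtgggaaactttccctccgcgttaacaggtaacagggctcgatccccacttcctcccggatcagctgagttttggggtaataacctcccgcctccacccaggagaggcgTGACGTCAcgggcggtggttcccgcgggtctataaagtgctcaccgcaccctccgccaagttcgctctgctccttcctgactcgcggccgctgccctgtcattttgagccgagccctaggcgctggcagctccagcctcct
*Btc*, chr14:16992418-16992717, plus strand: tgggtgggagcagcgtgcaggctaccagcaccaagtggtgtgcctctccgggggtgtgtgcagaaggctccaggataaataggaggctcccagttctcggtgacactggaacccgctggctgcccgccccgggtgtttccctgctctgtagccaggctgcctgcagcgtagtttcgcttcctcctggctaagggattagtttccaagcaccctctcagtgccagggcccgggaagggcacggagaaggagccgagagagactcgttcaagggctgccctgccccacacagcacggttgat
*Errfi1*, chr5:166606591-166606890, plus strand: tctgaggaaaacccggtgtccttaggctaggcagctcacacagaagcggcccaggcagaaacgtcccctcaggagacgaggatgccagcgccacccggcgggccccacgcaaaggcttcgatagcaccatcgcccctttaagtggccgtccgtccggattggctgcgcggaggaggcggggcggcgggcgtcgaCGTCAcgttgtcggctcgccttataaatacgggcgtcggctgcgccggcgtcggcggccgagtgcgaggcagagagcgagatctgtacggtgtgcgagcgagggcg
A match is a string of letters and not a measured binding site, and its part in the changes of these genes was not tested.

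The remaining ligands and the receptor *Erbb4* formed a list of 6 genes. Of these, 5 were found in the table by name and 2 had enough counts to test. *Nrg2* passed the filter on low counts only through the undifferentiated libraries, where it is highest, so that its fall was favoured by the filter. *Nrg2*, a second neuregulin gene, had 18, 22 and 41 counts in undifferentiated, 0, 0 and 3 in differentiated and 4, 6 and 5 in dedifferentiated libraries. Its summed level was 30.3-fold higher in undifferentiated than in differentiated cells, with an exact 95% interval of 10.0 to 150 that covers counting error only. On withdrawal it rose (log2 change 2.49, SE 0.88; edgeR adjusted p = 0.0397), a call lost on leaving out undifferentiated replicate 2 or 3, differentiated replicate 1 or 2, or dedifferentiated replicate 1 or 3, to a level still below undifferentiated cells (log2 change -2.30, SE 0.55; edgeR adjusted p = 0.0102). Within replicates 1 and 2 alone this last difference was not called. *Egf* changed by -1.07 under dbcAMP (SE 0.25; edgeR adjusted p = 0.00405). *Nrg4* was at 0 in every library, and *Nrg3* was not found in the table by name.

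Ligand release depends on a further set of 13 genes of proteases, their cofactors and the inhibitor *Timp3*. Of these, 11 were found in the table by name and 10 were tested. Under dbcAMP 5 were higher and 3 lower, on withdrawal 4 higher and 5 lower, and in dedifferentiated against undifferentiated cells 5 higher and 2 lower, where 59.6%, 46.4% and 29.4% of all genes were called. The median log2 changes of the list were 0.33, -0.28 and 0.34, beside 0.05, -0.01 and 0.02 for all genes. The 5 lower genes on withdrawal became 3 without differentiated replicate 3 or dedifferentiated replicate 2 or 3. Within replicates 1 and 2 alone they were 3, and the 4 higher genes were 1. *Adam17*, the gene of the main sheddase of amphiregulin, heparin-binding EGF and transforming growth factor alpha, measured 126, 161 and 166 CPM in undifferentiated, 596, 625 and 626 CPM in differentiated and 213, 201 and 220 CPM in dedifferentiated libraries. Every differentiated library was above every other. Its log2 change was 1.97 on differentiation (SE 0.10; edgeR adjusted p = 5.49e-08) and -1.53 on withdrawal (SE 0.09; edgeR adjusted p = 8.04e-07). *Timp3*, which encodes an inhibitor of ADAM17, rose with it, from 117 ± 38.5 to 860 ± 47.9 CPM (SD, n = 3; log2 change 2.82, SE 0.20; edgeR adjusted p = 6.43e-07). *Bace2* changed by 1.27 (SE 0.12; edgeR adjusted p = 7.18e-06) and was not called on withdrawal (edgeR adjusted p = 0.0981).

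Of 15 genes that control ErbB receptor turnover and folding, 10 were found in the table by name. All 10 were tested, and the others are unmeasured here, not shown to be low. Under dbcAMP 0 were called higher and 2 lower, where 59.6% of all genes were called, with a median log2 change of 0.03 beside 0.05 for all genes. On withdrawal 3 were higher and 1 lower, against 46.4% of all genes, and in dedifferentiated against undifferentiated cells 0 were higher and 3 lower, against 29.4%. Without undifferentiated replicate 1 that last comparison gave 1 higher gene. *Cblb*, which encodes a ubiquitin ligase of receptor tyrosine kinases, averaged 55.0 ± 3.14 CPM without dbcAMP, 10.7 ± 0.210 with it and 29.1 ± 3.37 after its withdrawal (SD, n = 3). It fell by 2.41 on the log2 scale under dbcAMP (SE 0.11; edgeR adjusted p = 3.88e-08) and rose by 1.45 on withdrawal (SE 0.11; edgeR adjusted p = 3.96e-06). *Stub1*, the gene of a ubiquitin ligase that works with chaperones, changed by -0.67 and 0.37 (edgeR adjusted p = 2.76e-05 and 0.00287).

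Downstream of the receptors, 22 of 23 genes of adaptors, Ras and the ERK cascade were found in the table by name, and all 22 were tested. Of these 7 rose and 11 fell under dbcAMP, where 31.7% of all genes were called higher and 27.9% lower, with a median log2 change of -0.35 against 0.05 for all genes. On withdrawal 10 rose and 3 fell, where 23.2% of all genes were called in each direction, with a median of 0.22 against -0.01. Between dedifferentiated and undifferentiated cells 4 were higher and 7 lower, against 29.4% of all genes called, with a median of 0.03 against 0.02. The 4 higher genes became 2 without undifferentiated replicate 2 or 3 or dedifferentiated replicate 1 or 2, and 1 without dedifferentiated replicate 3. *Gab2*, a docking protein gene, and *Rras*, a Ras relative, fell by 1.90 and 1.24 on the log2 scale under dbcAMP (edgeR adjusted p = 2.08e-07 and 2.34e-05) and rose by 0.92 and 1.06 on withdrawal (edgeR adjusted p = 9.13e-05 and 0.000148). *Shc4*, an adaptor gene, rose by 2.46 (SE 0.31; edgeR adjusted p = 5.74e-05), and on withdrawal its change of -0.28 did not pass the threshold (edgeR adjusted p = 0.444). Of 18 genes of the PI3 kinase, Akt and phospholipase C gamma branches, 17 were found in the table by name and 16 were tested. Among the 16, 5 rose and 4 fell under dbcAMP, near the 59.6% of all genes called. On withdrawal 2 were higher and 5 lower, against 46.4% of all genes, and the 5 became 3 or 2 without any 1 differentiated or dedifferentiated library, while the 2 became 1 without differentiated replicate 1 or 3 or dedifferentiated replicate 2 or 3. Between dedifferentiated and undifferentiated cells 4 were higher and 2 lower, against 29.4% of all genes, and the 2 became 1 without undifferentiated or dedifferentiated replicate 3. The list's median log2 changes in the 3 comparisons were 0.01, -0.06 and -0.05. The largest of the changes under dbcAMP was that of *Pik3cb*, a catalytic subunit of PI3 kinase, at 3.32 (SE 0.46; edgeR adjusted p = 0.000122) from only 2 to 6 counts per undifferentiated library. *Pik3r3*, a regulatory subunit, changed by 1.44 (edgeR adjusted p = 5.50e-05) and *Pik3cd*, another catalytic subunit, by -1.64 (edgeR adjusted p = 0.00389).

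A list of 20 genes that ERK signalling induces, with feedback inhibitors among them, was tested whole. Under dbcAMP 12 were higher and 3 lower, where 31.7% of all genes were higher and 27.9% lower, with a median log2 change of 1.39 beside 0.05 for all genes. On withdrawal 1 was higher and 15 lower, where 23.2% of all genes were called in each direction, with a median of -2.03 beside -0.01. The parts of dbcAMP, serum, forskolin and neuregulin in this were not tested. Dedifferentiated and undifferentiated cells differed for 6 of 20, 2 higher and 4 lower, which is near the 29.4% of all genes called. Undifferentiated replicate 1 was the lowest library of its stage for 18 of the 20 genes. One was *Dusp6*, the gene of another ERK phosphatase, with 1.37 CPM beside 56.7 and 36.9. Replicate 1 was also the lowest for 12 of the 20 genes in differentiated and 13 in dedifferentiated cells. Without undifferentiated replicate 1, 11 genes were higher and 4 lower under dbcAMP, with a median log2 change of 1.21. On withdrawal 1 was then higher and 15 lower. *Dusp6* was chosen as an example after its values were seen. *Dusp4*, which encodes a phosphatase that inactivates ERK, measured 0.806, 6.73 and 8.18 CPM in undifferentiated, 244, 316 and 259 CPM in differentiated and 8.22, 6.56 and 8.95 CPM in dedifferentiated libraries. Every differentiated library was far above all others. The log2 change of *Dusp4* was 5.63 on differentiation (SE 0.44; edgeR adjusted p = 1.44e-06) and -5.09 on withdrawal (SE 0.42; edgeR adjusted p = 5.91e-06). *Etv4* and *Etv1*, genes of ETS transcription factors, rose by 4.28 and 3.99 (edgeR adjusted p = 0.000181 and 1.91e-05) and fell by 3.85 and 2.75 on withdrawal (edgeR adjusted p = 0.000529 and 0.000279). The 3 genes that fell under dbcAMP, named after their values were seen, were *Spry2*, *Dusp5* and *Epha4*, and *Epha4* was the gene that rose on withdrawal, joined by 1 more without differentiated replicate 2. The 4 lower genes of dedifferentiated against undifferentiated cells became 8 without undifferentiated replicate 1, and the list's median log2 change went from -0.02 to -0.42. They became 2 without undifferentiated replicate 2 or any 1 of the dedifferentiated libraries, and the 2 higher became 1 without dedifferentiated replicate 3.

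**Figure D4:**
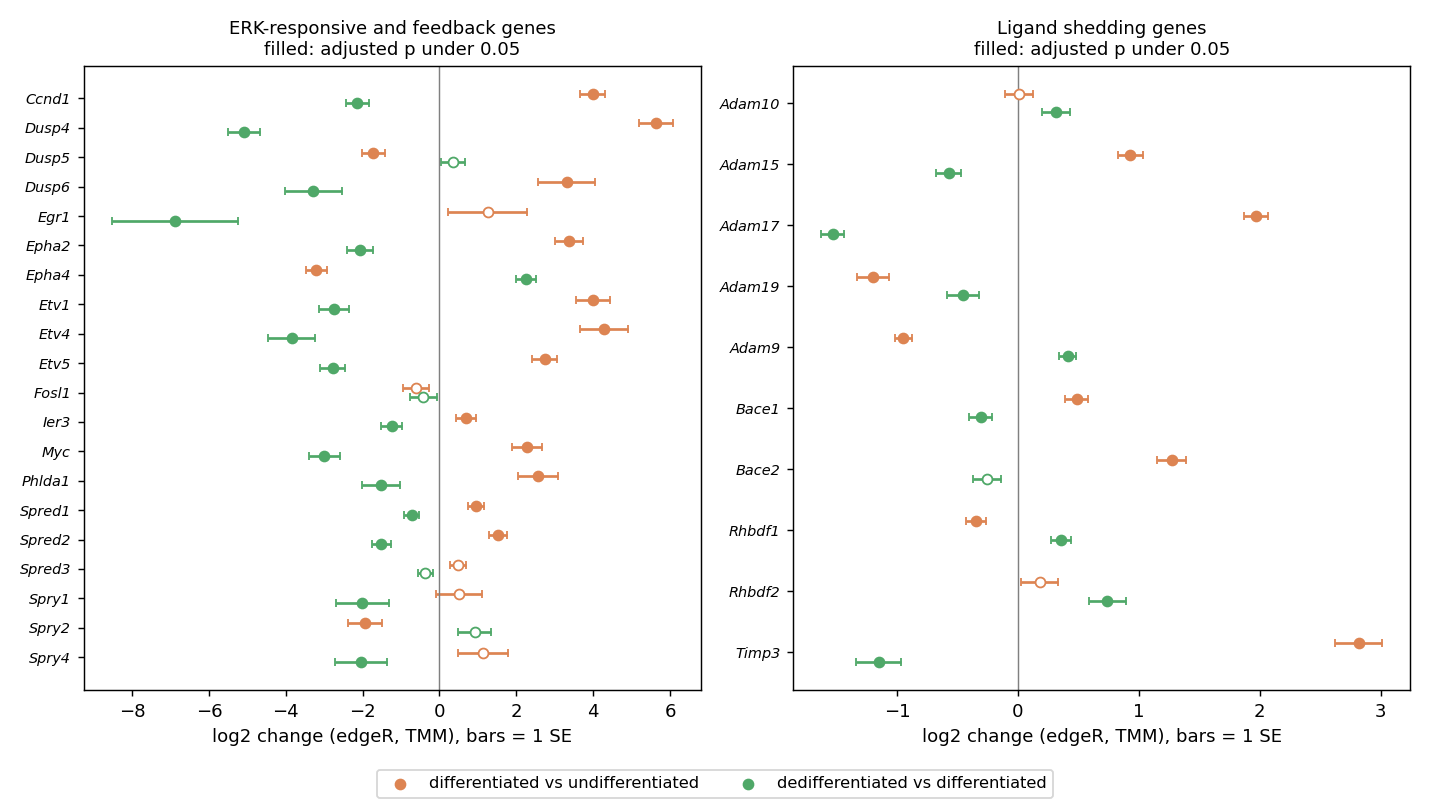
Log2 change (horizontal axis, edgeR with TMM scaling, bars of 1 SE) of 20 ERK-responsive and feedback genes (left) and 10 ligand shedding genes (right). Orange points compare differentiated with undifferentiated cells, green points dedifferentiated with differentiated cells, and filled points passed an adjusted p of 0.05. On the left 12 filled orange points lie right of 0 and 15 filled green points left of it.

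The genes whose pattern over the 9 libraries was most like that of *Erbb3* and *Nrg1* were sought among all genes tested, by the Pearson correlation of log2 CPM. For *Erbb3* these were *Gss* (r = 0.992), *Tvp23b* (0.991) and *Slc26a1* (0.991). For *Nrg1* they were *Rasl12* (r = 0.955), *Grasp* (0.952) and *Depdc1b* (0.950). The 9 points of each correlation share their libraries and the 3 stages, and the values are a description.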

How the data were processed

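Cell mRNA was read from the authors' deposited table of estimated counts, 1 row a gene, named as salmon output; build, annotation and salmon's version are not given in the sources used here. Per the submitters' processing notes, Trim Galore, STAR, HISAT2, Salmon and DESeq2 1.26.0 were among the tools. Values were rounded, as 1.15% were not whole. Columns were matched to samples by library code and stage; their replicate suffix differs from the sample titles, which were followed. The vesicle miRNA and lncRNA tables were not used here.

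The tests used edgeR 4.0.16 under R 4.3.3 (filterByExpr, minimum count 10, TMM, column totals as library sizes, all 9 libraries in 1 quasi-likelihood fit without covariates, 10372 genes). SE is the size of the log2 change divided by the square root of F, and intervals are 95%. The test was also run on simulated counts of independent libraries with a far smaller share of changed genes than here. That run does not show how the test performs on these data. The *Erbb2* to *Erbb3* ratio had 0.5 counts added to each gene. Alternatives included DESeq2 1.42.0.

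All members are named. From each pathway list the 3 called genes with the largest change on differentiation, and the 3 genes most like *Erbb3* and *Nrg1*, are named by rule. Members and lists were chosen with earlier results of these data known. Sequences are from RefSeq, build GRCr8, which held all 10 names.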

Additional observations from a re-analysis of the deposited data

How the results depend on the processing

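Each of 24 results (8 genes in 3 comparisons) was refitted under 10 other settings and with each of 9 libraries left out. Of the 450 fits obtained, 406 kept direction and side of the threshold, 22 lost a call, 17 gained one and 5 changed sign. All 5 sign changes were of *Tgfa*, which was never called: on withdrawal 0.044 within replicates 1 and 2 and, with a library left out, -0.106 to 0.047 (above 0 without differentiated replicate 1 or dedifferentiated replicate 2 or 3), and for dedifferentiated against undifferentiated cells -0.057 to 0.124 (below 0 without dedifferentiated replicate 1). *Nrg1* and *Areg* were dropped by a filter of 10 counts in every library. *Btc* against undifferentiated cells was called lower in 9 settings, among them DESeq2's Wald test (adjusted p = 0.0177), DESeq2's size factors in edgeR (0.0413) and the fits without undifferentiated replicate 2 (edgeR adjusted p = 0.0242), differentiated replicate 1 (0.0385) or 2 (0.0227). *Areg* on withdrawal was called by DESeq2 (adjusted p = 0.0356) and without undifferentiated replicate 1 or 2 or dedifferentiated replicate 1 (edgeR adjusted p = 0.0343, 0.0450 and 0.0398). Against undifferentiated cells it was called without undifferentiated replicate 1 or dedifferentiated replicate 2 (0.0317 and 0.0411).

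Over all genes 6179, 4809 and 3045 were called in the comparisons in order. Testing against an absolute log2 change of 1 gave 1676, 731 and 430, and replicates 1 and 2 alone gave 2606 on withdrawal and 1283 for dedifferentiated against undifferentiated cells. Leaving out a library gave 5558 to 6415, 3916 to 5184 and 2246 to 3044 calls. Same-numbered libraries of different stages deviated together in 7 of 9 pairs (correlation over 0.1; range 0.03 to 0.30), and 8 of 9 libraries correlated best with their own number, which hints at a link that the labels do not state. With the replicate block 6325, 5031 and 3256 genes were called, *Areg* and *Btc* among the lower genes in dedifferentiated against undifferentiated cells (edgeR adjusted p = 0.0207 and 0.0224) and *Areg* on withdrawal (0.0157). The exact permutation p of the *Erbb2* to *Erbb3* ratio was 0.0278 within replicate numbers. It was 0.0667 without any 1 replicate number, the smallest that 15 assignments allow.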
